A study of Schizosaccharomyces pombe with 10 samples.

Results

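Fission yeast carrying Atf1.10M, a form of the transcription factor Atf1 that is labelled unphosphorylatable, was compared with yeast carrying HA-Atf1, both after 15 min in 1 mM H2O2. The comparison takes 2 of the 10 libraries in the series, chosen by their labels, 1 a side, and uses 4983 of the 7017 genes in the count table, those with a mean of at least 10 CPM over the 10 libraries, where CPM is a gene's count per unit of the scaled library total. The library called HA here is labelled as a sty1 deletion with HA-Atf1 of wild-type phosphorylation status, and the library called 10M as a sty1 deletion with HA-Atf1.10M. The other strains gave context, each with an untreated and a treated library: wild type (WT), a sty1 deletion with wild-type Atf1 and no tag named (STY), and a sty1 deletion with the phosphomimicking HA-Atf1.10D (10D). Cells grew exponentially in minimal medium, and polyA-enriched RNA was sequenced. The labels give neither the promoter nor the copy number of the tagged genes, nor the mating type of any strain. With 1 library a side there is no replicate check, no p-value is given for the comparison, and the 95% intervals cover counting error only.

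Atf1 is a bZIP transcription factor that works with its partner Pcr1 at CRE-like promoter sites containing TGACGT. The MAP kinase Sty1 is activated by oxidants, osmotic shock, heat and starvation, and phosphorylates Atf1. In fission yeast the pathway is known for switching on catalase and other stress genes, and for helping to induce ste11, the master regulator of mating and meiosis. A second route to peroxide resistance runs through Pap1, a bZIP factor that enters the nucleus when it is oxidised, and heat shock genes depend on the factor Hsf1.

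The sty1 transcript went against the deletion labels of the pair. It stood at 125 CPM in the library labelled HA and at 121 CPM in the library labelled 10M, both treated, against 9.11 CPM in treated STY and 305 CPM in treated WT. The untreated libraries gave 119 CPM in HA, 101.4 CPM in 10M, 8.92 CPM in STY and 267 CPM in WT, so HA and 10M lay between WT and STY in both conditions. The same held for 10D, at 130 CPM treated and 105 CPM untreated. Strain names are therefore used below as labels only; the extent of the deletion is not given, and sty1 overlaps a noncoding RNA on the opposite strand. The atf1 transcript was also unequal in the pair, at 660 CPM in treated HA and 398 CPM in treated 10M, a log2 ratio of -0.73, and at 556 and 358 CPM in the untreated libraries of those strains. In 10D atf1 was at 744 CPM treated and 524 CPM untreated. The leucine synthesis gene leu1 was at 5573 CPM in treated HA and 2876 CPM in treated 10M, against 680 CPM in treated WT and 1057 CPM in treated STY. Treated 10D, at 2902 CPM, was near treated 10M. The uracil gene ura4 had a log2 ratio of -0.75, the adenine gene ade6 -0.09 and actin act1 -0.01. The part of unequal atf1 or leu1 levels in the results below was not tested. The HA library held 10745498 counts and the 10M library 17780370, within a range of 9178795 to 26503471 over the series, and 3 counts correspond to 0.302 CPM in HA and 0.161 CPM in 10M.

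The promoters below belong to genes whose treated levels differed in the pair, and are shown because they hold letters linked to Atf1 or to Ste11. Each run is the 250 bases before the annotated gene start, written 5′ to 3′ on the strand of the gene, from RefSeq assembly ASM294v3. The build behind the deposited counts is not given in the sources used here. Capitals mark TGACGT, in either orientation, in ctt1, srk1 and adh4, and TTCTTTGTT, in either orientation, in mfm1 and ste11; the second is a form of the site bound by Ste11. The windows lie at chrI:4916765-4917014 on the plus strand for mfm1, chrII:3983126-3983375 on the plus strand for ste11, chrIII:58834-59083 on the minus strand for ctt1, chrIII:1301687-1301936 on the plus strand for srk1 and chrI:157933-158182 on the minus strand for adh4. The first 4 genes were higher in 10M and adh4 was lower.
mfm1: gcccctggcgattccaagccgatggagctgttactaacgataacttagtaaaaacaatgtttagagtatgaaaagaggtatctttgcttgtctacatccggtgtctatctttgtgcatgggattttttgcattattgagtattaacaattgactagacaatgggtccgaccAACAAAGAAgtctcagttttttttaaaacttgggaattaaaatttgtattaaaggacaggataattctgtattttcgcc
ste11: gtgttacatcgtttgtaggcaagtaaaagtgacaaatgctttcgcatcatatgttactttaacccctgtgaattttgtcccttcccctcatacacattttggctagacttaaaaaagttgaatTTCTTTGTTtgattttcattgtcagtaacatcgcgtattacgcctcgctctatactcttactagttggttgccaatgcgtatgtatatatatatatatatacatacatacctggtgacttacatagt
ctt1: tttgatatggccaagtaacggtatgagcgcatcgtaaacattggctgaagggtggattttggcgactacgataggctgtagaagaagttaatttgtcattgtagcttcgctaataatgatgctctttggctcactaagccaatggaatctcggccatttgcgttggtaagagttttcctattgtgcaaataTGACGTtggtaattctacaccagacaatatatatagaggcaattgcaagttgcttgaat
srk1: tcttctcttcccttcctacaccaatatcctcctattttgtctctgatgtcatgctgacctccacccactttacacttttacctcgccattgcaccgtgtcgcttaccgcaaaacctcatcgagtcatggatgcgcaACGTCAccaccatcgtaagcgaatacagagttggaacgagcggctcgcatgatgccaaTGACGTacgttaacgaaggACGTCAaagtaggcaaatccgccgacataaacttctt
adh4: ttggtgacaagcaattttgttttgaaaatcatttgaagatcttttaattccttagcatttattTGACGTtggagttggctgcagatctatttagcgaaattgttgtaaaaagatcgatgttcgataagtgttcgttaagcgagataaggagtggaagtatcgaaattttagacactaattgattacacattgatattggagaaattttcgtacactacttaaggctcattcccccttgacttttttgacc

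Among protein-coding genes that were compared and placed in RefSeq, TGACGT on either strand lay within 250 bases before to 50 bases after the start of 19 of 100 genes higher in 10M (19%) and 3 of 25 lower genes (12%), and in 271 of all 4678 (5.79%). The longer ATGACGT, of which TGACGT is a part, was found in 10% of the higher genes, 4% of the lower genes and 1.52% of all. TTCTTTGTT, searched for only after mating genes had been seen among the highest ratios, was found in 10% of the higher genes, 0% of the lower genes and 1.92% of all. Of the other motifs searched, the full site TGACGTCA was in 1% of the higher, 4% of the lower and 0.278% of all genes, TTACGTAA in 4%, 4% and 0.492%, and a heat shock element in 1%, 4% and 0.47%. The genes come from a filter over all 10 libraries, which also keeps genes by their level in WT and 10D. With a filter on the compared pair alone, added after seeing the data, TGACGT was in 12 of 72 higher genes (16.7%), 2 of 27 lower genes (7.41%) and 5.67% of all, ATGACGT in 6.94%, 0% and 1.35%, and TTCTTTGTT in 9.72%, 0% and 1.83%. These shares describe letters in a window, not binding.

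A gene is called apart when the 10M to HA ratio of scaled CPM reached 2-fold and its counting interval excluded equality. In the treated pair 158 of 4983 genes were apart (3.17%), of which 110 were higher in 10M (2.21%) and 48 lower (0.963%). Ratios of at least 4-fold were found for 22 higher and 4 lower genes, 88.7% of genes lay within 1.5-fold, and the median log2 ratio of all genes was 0.04. The split depended on scaling and on the filter. Scaling to total counts moved the median of all genes to 0.22 and gave 157 higher and 29 lower genes (84.4% higher, against 69.6%). A filter on the mean of the 2 libraries compared, in place of all 10, gave 77 higher and 77 lower (50% higher, each 1.55% of 4980 genes). That filter can admit a gene through whichever library of the pair holds it high. Both filters shared 74 higher and 44 lower genes; 36 higher and 4 lower genes passed the 10-library filter alone, and 3 higher and 33 lower genes the filter on the pair alone.

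**Figure D1:**
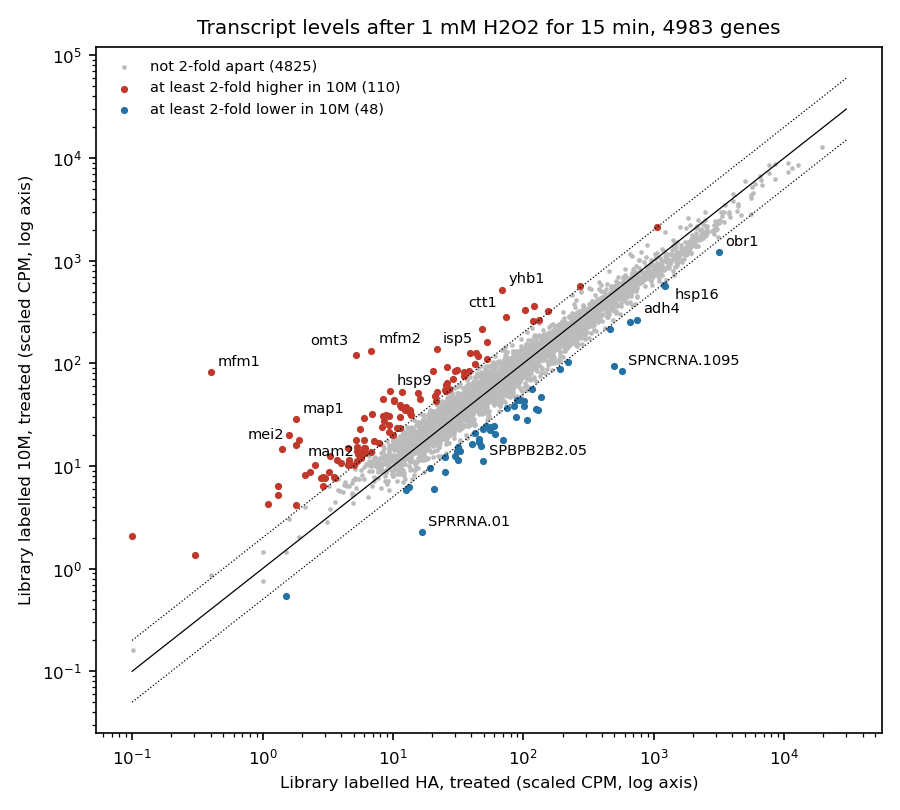
Scaled CPM of 4983 genes in the treated HA library (x axis, log) and the treated 10M library (y axis, log), 1 point a gene, with red points for the 110 genes at least 2-fold higher and blue points for the 48 at least 2-fold lower in 10M, and values under 0.1 CPM drawn at 0.1. The solid line is equality and the dotted lines are 2-fold; mfm1 lies farthest above the lines at 0.402 and 82.5 CPM, and 77 of the 110 higher genes are at under 20 CPM in HA.

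Genes of mating and meiosis held the highest ratios. Of 25 listed genes 20 were compared, and 12 were apart, all 12 higher in 10M, beside 2.21% higher of all genes, with a median log2 ratio of 1.43 beside 0.04 for all genes. With the filter on the pair 9 of 14 were higher and 0 lower, beside 1.55% higher and 1.55% lower of all genes. The 5 genes under the filter were mei3, mfm3, map2, mfr1 and ste7, at 0.302 to 8.65 CPM in treated HA. The list and its members were chosen with earlier results of these data known.

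mfm1 and mfm2 encode precursors of M-factor, the pheromone secreted by M cells, and several mfm genes give the same peptide. mfm1 stood at 0.402 CPM (4 counts) in treated HA and 82.5 CPM (1536 counts) in treated 10M, a log2 ratio of 7.23 with an interval of 6.32 to 9.56. Its untreated levels were 0.532 CPM in HA and 127 CPM in 10M. In the other strains it was at 47.1 CPM in untreated WT, 42.4 CPM in untreated 10D and 0.63 CPM in untreated STY, and after H2O2 at 1.28 CPM in WT, 1.28 CPM in 10D and 0.562 CPM in STY. Treated 10M was thus above every treated library of the other strains, while treated HA was near STY.

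mfm2 was at 6.74 CPM in treated HA and 131 CPM in treated 10M, a log2 ratio of 4.25 (3.93 to 4.65). Its treated levels were 14.7 CPM in WT, 4.27 CPM in STY and 28.9 CPM in 10D, and its untreated levels 289, 8.08 and 281 CPM in the same order, with 29 CPM in HA and 221 CPM in 10M. Untreated 10M was therefore of the order of untreated WT and 10D, and after H2O2 the 10M level was the highest of the treated libraries.

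Other M-cell genes differed less. mam2, the receptor for P-factor, was at 1.91 CPM in treated HA and 18 CPM in treated 10M, a log2 ratio of 3.14 (2.57 to 3.99). mam1, which exports M-factor, was at 20.9 and 48.2 CPM, a log2 ratio of 1.20. sxa2, an M-cell carboxypeptidase that degrades P-factor, was at 21.3 and 23.4 CPM, a log2 ratio of 0.13. Of the 6 M markers 5 were compared and 4 were higher, beside 2.21% higher of all genes. With the filter on the pair, which drops mam2, 3 of 4 were higher, beside 1.55% of all genes. The summed level of the 6 markers was 53.1 CPM in treated HA and 308 CPM in treated 10M, with none at 0 in either. The summed level of the 2 P-cell receptor and pheromone markers map2 and map3 was 13.8 CPM in treated HA and 19 CPM in treated 10M, again with none at 0. The part of mating type in these differences was not tested.

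The regulators of the mating programme were also apart. ste11, whose promoter is printed above, was at 2.52 CPM in treated HA and 10.3 CPM in treated 10M, a log2 ratio of 1.97 (1.42 to 2.69), and at 13.9 and 70.4 CPM in the untreated pair. Its treated level was 14 CPM in WT, 2.81 CPM in STY and 59.3 CPM in 10D. The gene ste11 did not pass the filter on the pair, and was compared because of its levels in other libraries. mei2, an RNA-binding protein needed to start meiosis, was at 1.61 and 20 CPM in the treated pair, a log2 ratio of 3.52 (2.92 to 4.46). map1, a MADS-box factor needed for P-specific transcription, was at 1.81 and 28.7 CPM, a log2 ratio of 3.88 (3.31 to 4.75). Signalling genes of the list, picked after their values were seen, were higher as well: ste4 by 1.83, gpa1 (the G protein subunit of the pheromone receptors) by 1.71, byr1 (a MAP kinase kinase) by 1.62 and spk1 (its MAP kinase) by 1.48 on the log2 scale. pat1, the kinase that restrains Ste11 and Mei2, had a log2 ratio of 0.01, and mei4, a factor of middle meiosis, -0.72; neither was apart.

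The long noncoding RNA omt3, annotated as a meiosis-specific focus RNA, was at 5.23 CPM in treated HA and 120 CPM in treated 10M, a log2 ratio of 4.48. The untreated pair gave 6.7 and 62.4 CPM, and treated WT, STY and 10D gave 3.74, 0.675 and 44.2 CPM. Treated 10M and untreated 10D, at 119 CPM, were the highest of the 10 libraries.

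**Figure D2:**
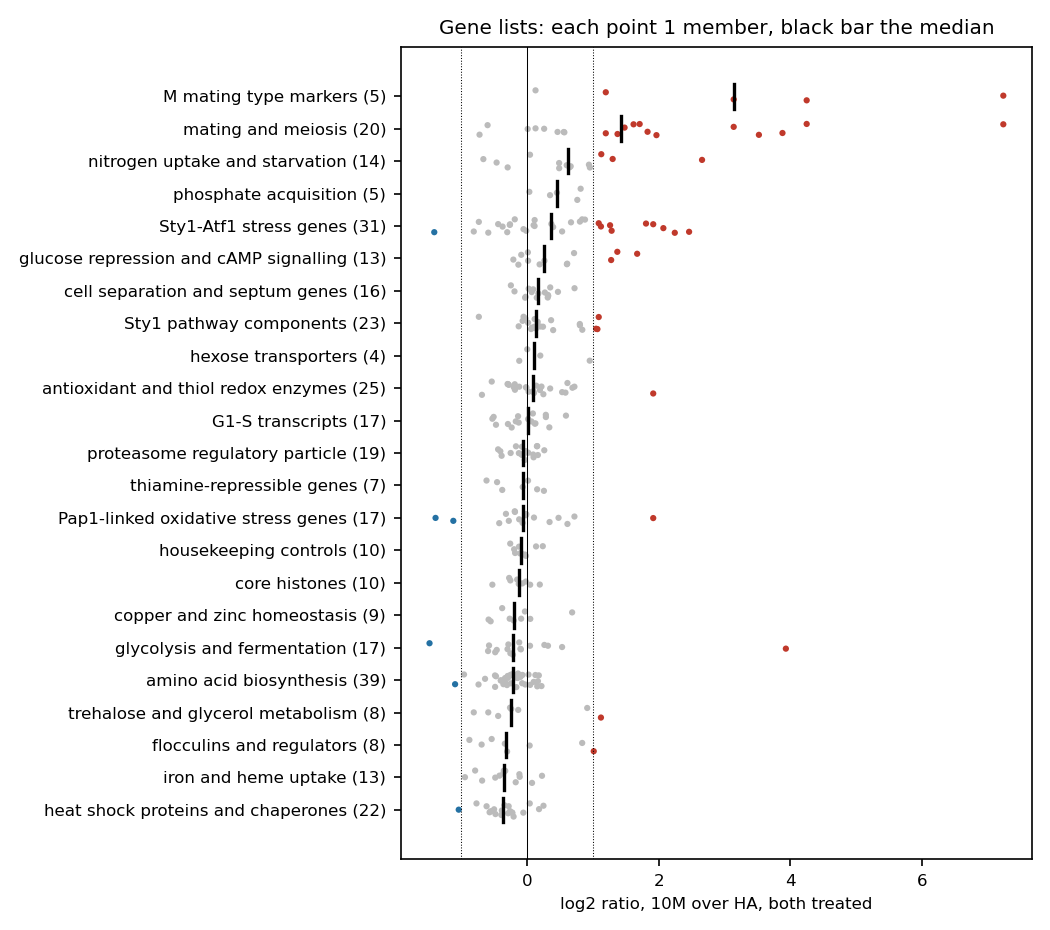
Log2 ratio of 10M over HA after H2O2 (x axis) for the compared members of 23 gene lists (y axis, with the number compared), 1 point a gene, red for at least 2-fold higher, blue for at least 2-fold lower and grey for neither, with a black bar at the list median. The median of mating and meiosis is 1.43, that of the Sty1-Atf1 stress genes is 0.37 and that of heat shock proteins is -0.36.

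Stress genes known as targets of Sty1 and Atf1 were divided. Of 32 listed genes 31 were compared; 9 were higher in 10M, 1 was lower and 21 were not apart, beside 2.21% higher and 0.963% lower of all genes, with a median log2 ratio of 0.37. With the filter on the pair, which drops cta3, 8 of 27 were higher and 1 lower, beside 1.55% higher and 1.55% lower of all genes. The exception to the filter, the gluconeogenesis gene fbp1, was at 1.71 CPM in HA and 8.06 CPM in 10M. Summed over the 32 genes the level was 4880 CPM in treated HA and 4370 CPM in treated 10M, against 63700 CPM in treated WT, 21900 CPM in treated 10D and 4530 CPM in treated STY. Both sums of the pair were near that of STY, and the 9 higher genes lay between 1.11 and 73.9 CPM in treated HA.

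ctt1, the catalase, was at 73.9 CPM in treated HA and 280 CPM in treated 10M, a log2 ratio of 1.92 (1.81 to 2.03). The same transcript was at 25 CPM in treated STY, 7903 CPM in treated 10D and 15866 CPM in treated WT, so the 10M level was above HA and STY and far below WT and 10D. hsp9, a small stress protein of the cell surface, was at 9.56 and 53.3 CPM in the pair, a log2 ratio of 2.46 (2.18 to 2.80), against 9163 CPM in treated WT, 1069 CPM in treated 10D and 4.39 CPM in treated STY. zym1, a metallothionein, was at 6.04 and 29.2 CPM, a log2 ratio of 2.25. cta3, a cation ATPase, was at 1.11 and 4.24 CPM in the pair and at 303 CPM in treated WT. Of these genes, hsp9 and cta3 overlap annotated noncoding RNAs, and the strand setting of the counting is not given in the sources used here.

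srk1, a kinase activated by Sty1 whose promoter holds 3 TGACGT sites, was at 35.2 CPM in treated HA and 75.2 CPM in treated 10M, a log2 ratio of 1.09 (0.92 to 1.27), against 507 CPM in treated WT. The phosphatases that switch Sty1 off, ptc1 and pyp1, were higher by 1.07 and 1.05 on the log2 scale. With srk1 they were the only pathway components apart of 23 compared, 3 higher and 0 lower, beside 2.21% higher of all genes. With the filter on the pair, which drops pyp1, 2 of 22 were higher, beside 1.55% of all genes. The phosphatase pyp2 had a log2 ratio of 0.81, the MAP kinase kinase wis1 0.80, and pcr1, the Atf1 partner, 0.12.

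rds1, a stress-responsive gene, ran the other way. It was at 102 CPM in treated HA and 38.4 CPM in treated 10M, a log2 ratio of -1.41, whereas in the untreated pair it was at 17.3 CPM in HA and 30.8 CPM in 10M, a log2 ratio of 0.83. Of 8 genes of trehalose and glycerol metabolism compared, 1 was higher in 10M, gut2 (a glycerol-3-phosphate dehydrogenase, log2 ratio 1.12), 0 were lower and 6 had a log2 ratio below 0. Of all genes 2.21% were higher, 0.963% were lower and 44.4% were below 0. tps1, trehalose-phosphate synthase, was at 440 CPM in treated HA and 325 CPM in treated 10M and at 205 and 290 CPM untreated. ntp1, the trehalase, was at 225 and 150 CPM treated and at 72 and 132 CPM untreated, so both had the order of rds1 without reaching 2-fold. tpp1, trehalose-phosphate phosphatase, was lower in 10M in both pairs, by -0.26 treated and -0.17 untreated on the log2 scale, and gpd1, a glycerol-3-phosphate dehydrogenase, by -0.81 and -0.38.

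yhb1, a nitric oxide dioxygenase, was not on the stress list and was at 68.5 CPM in treated HA and 523 CPM in treated 10M, a log2 ratio of 2.93 (2.82 to 3.05). Treated WT had 769 CPM, treated 10D 1175 CPM and treated STY 81.2 CPM, so 10M was nearer WT and HA nearer STY. eno102, an enolase, had no count in treated HA and 2.095 CPM (39 counts) in treated 10M, 6.94-fold higher when HA is set to 3 counts in its library. The counting interval of its log2 ratio begins at 2.43, and it overlaps a noncoding RNA on the opposite strand. hhy1, annotated as a hydrolase, was at 1.81 and 16.1 CPM in the pair and at 148 CPM in treated WT. SPAC4H3.03c, annotated as a glucan 1,4-alpha-glucosidase, was at 1.41 and 14.6 CPM and at 171 CPM in treated WT. The genes eno102, hhy1 and SPAC4H3.03c did not pass the filter on the pair, and were compared because of their levels in other libraries.

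**Figure D3:**
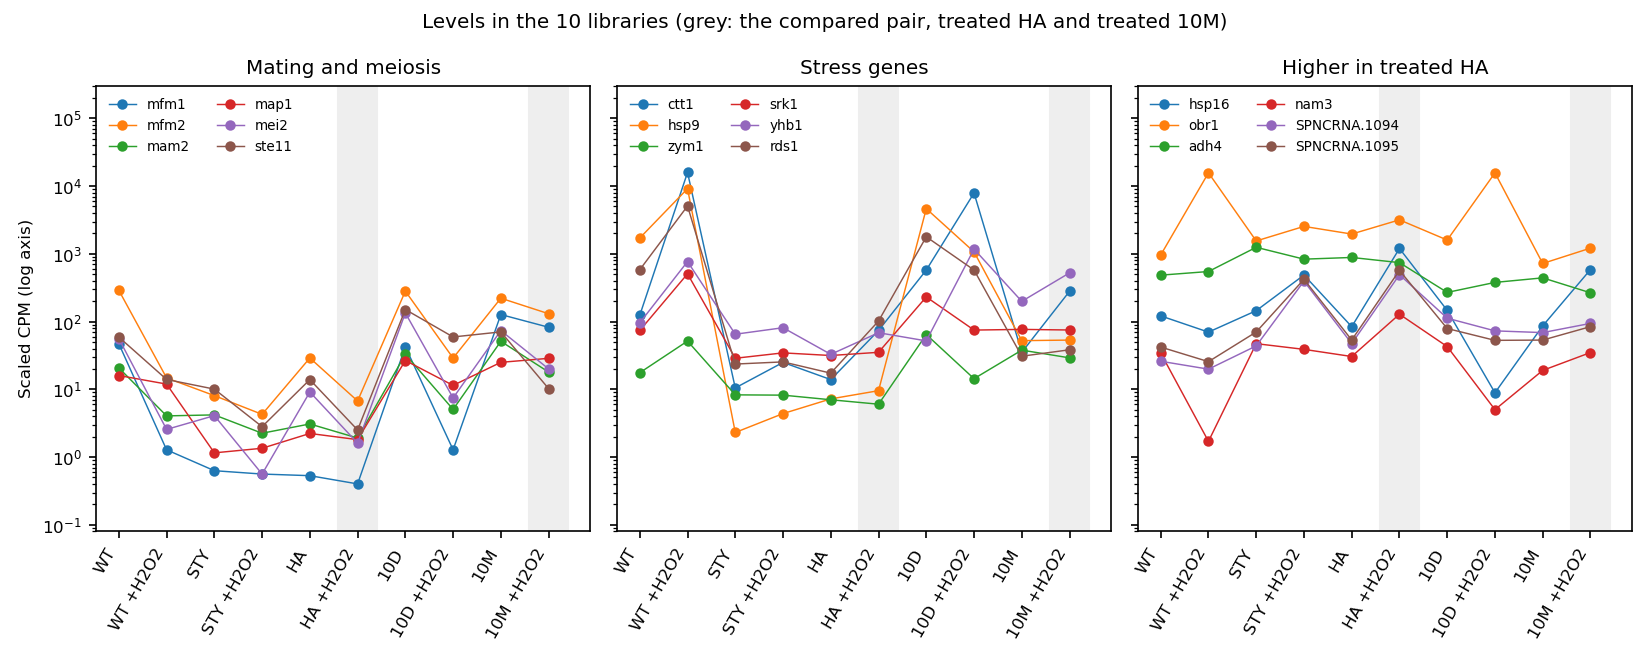
Scaled CPM (y axis, log) of 18 genes in the 10 libraries (x axis; grey bands mark the compared pair), with points joined within a gene only to guide the eye and values under 0.1 CPM drawn at 0.1. In the left panel treated 10M lies above treated HA for all 6 genes; in the right panel, of genes lower in 10M, it lies below for all 6, with SPNCRNA.1095 at 569 CPM in HA and 84.2 CPM in 10M.

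Genes linked to Pap1 moved both ways. Of 17 compared, 1 was higher, the catalase above, and 2 were lower, beside 2.21% higher and 0.963% lower of all genes. obr1, a quinone oxidoreductase, was at 3174 CPM in treated HA and 1214 CPM in treated 10M, a log2 ratio of -1.39 (-1.41 to -1.36), and at 1959 and 721 CPM untreated, so that the treated and untreated pairs differed alike. Treated WT and 10D had 15688 and 15655 CPM. SPCC663.08c, a short chain dehydrogenase, was at 191 and 88 CPM treated, a log2 ratio of -1.12, which was -0.94 and no longer 2-fold under scaling to total counts. The thioredoxin reductase trr1 (680 and 1122 CPM) and the sulfiredoxin srx1 (82.8 and 127 CPM), which repairs peroxiredoxin, had log2 ratios of 0.72 and 0.62 and were not apart, and the peroxiredoxin tpx1 and the factor pap1 had -0.01 and -0.07. obr1, SPCC663.08c, trr1 and srx1 overlap annotated genes on the opposite strand, as do map1, mam1, hhy1, rds1 and ntp1 above. The list of antioxidant and thiol enzymes had 1 gene apart of 25, again the catalase, a share near the 3.17% of all genes.

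Heat shock proteins and chaperones were at slightly lower levels in 10M. Of 22 compared, 19 had a log2 ratio below 0 (86.4%, beside 44.4% of all genes), with a median of -0.36. The sum was 46600 CPM in treated HA and 38500 CPM in treated 10M. Iron and heme uptake genes (84.6%) and housekeeping controls (80%) were also mostly below 0. In the untreated pair 16 of the 22 were below 0, with a median of -0.15, beside 49.5% of all genes. Under scaling to total counts the treated heat shock median was -0.18 while that of all genes was 0.22. hsp16, a small heat shock protein, was the single member apart, at 1200 CPM in treated HA and 586 CPM in treated 10M, a log2 ratio of -1.03, and -0.86, no longer 2-fold, under scaling to total counts. Its levels in the other treated libraries were 69.9 CPM in WT, 486 CPM in STY and 8.91 CPM in 10D, so both libraries of the pair were above WT and 10D. hsp104, a disaggregase named here after its value was seen, was at 849 and 649 CPM treated and at 175 and 357 CPM untreated.

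Transcripts of cytosolic ribosomal proteins were lower together by less than 2-fold, in the untreated pair as well. Untreated, 124 of 138 had a log2 ratio below 0 (89.9%, beside 49.5% of all genes), with a median of -0.22. In the treated pair 134 of 138 were below 0, with a median of -0.44 that was -0.26 under scaling to total counts, and 0 were apart. Of all genes 44.4% were below 0 there. rpl15 and rpp203 had the lowest ratios, -0.93 and -0.92. Core histones, G1-S transcripts, cell separation genes, iron and heme uptake genes, copper and zinc genes, phosphate genes, thiamine-repressible genes, hexose transporters, proteasome subunits and housekeeping controls had 0 genes apart, with list medians between -0.35 and 0.46.

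Nitrogen and carbon response genes included further higher transcripts. Of 14 genes of nitrogen uptake and starvation 3 were higher and 0 lower, beside 2.21% higher of all genes, with a median log2 ratio of 0.63. With the filter on the pair, which drops ptr2, 2 of 13 were higher, beside 1.55% of all genes. isp5, an amino acid transporter, was at 21.6 CPM in treated HA and 137 CPM in treated 10M, a log2 ratio of 2.66 (2.47 to 2.88), and was above the treated WT level of 3.52 CPM in both. isp4, an oligopeptide transporter, was at 26.1 and 64.5 CPM and ptr2, a peptide transporter, at 1.81 and 4.14 CPM. The ammonium transporter amt1 had a log2 ratio of 0.94 and isp7, an oxygenase, 0.96; both passed 2-fold under scaling to total counts. Of 13 genes of glucose repression and cAMP signalling 3 were higher and 0 lower, beside 2.21% higher of all genes. They were inv1 (invertase) by 1.67, cgs1 (the regulatory subunit of protein kinase A) by 1.37 and git5 (a G protein subunit of glucose sensing) by 1.28 on the log2 scale. With the filter on the pair, which drops cgs1 and git5, 1 of 11 was higher, inv1, beside 1.55% of all genes.

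Noncoding RNAs made up 23 of the 48 lower genes (47.9%) and 10 of the 110 higher genes (9.09%), against 5.94% of all genes compared. With the filter on the compared pair alone they made up 50 of 77 lower genes (64.9%) and 5 of 77 higher genes, against 7.71% of all. Of those 77 lower genes 33 passed the filter on the pair alone. That filter can admit a lower gene through treated HA, where it is high, so its share is no separate check. SPNCRNA.1095 and its neighbour SPNCRNA.1094, which do not overlap each other or another annotated gene, were at 569 and 492 CPM in treated HA and at 84.2 and 94.1 CPM in treated 10M, log2 ratios of -2.75 and -2.39. In treated STY they were at 421 and 396 CPM, in treated WT at 25.6 and 19.9 CPM and in treated 10D at 52.8 and 73 CPM, so HA and STY were high and the others low. Untreated, SPNCRNA.1095 was at 53.5 CPM in HA and 53.4 CPM in 10M.

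Some other lower transcripts were highest in treated HA, with treated STY near treated 10M. SPNCRNA.1673 was at 107 CPM in treated HA and 28.3 CPM in treated 10M, with 39.1 CPM in treated STY and 2.35 CPM in treated WT. SPCC594.03, an uncharacterised protein gene, was at 125 CPM in HA, 36.3 CPM in 10M and 36.7 CPM in STY, and the lncRNA nam3 at 129, 34.9 and 38.9 CPM. SPNCRNA.472 was at 69.4 CPM in HA, 17.7 CPM in 10M and 46.9 CPM in STY, so its STY level lay between the pair. SPBPB2B2.05, a glutamine amidotransferase family gene next to nam3, was at 48.8 and 11.2 CPM, a log2 ratio of -2.11, and was lower in the untreated pair too, by -2.50. For other lower genes treated STY was above treated HA, among them SPNCRNA.1190 (30.6 and 20.7 CPM), adh4 (835 and 742 CPM), met17 (629 and 463 CPM) and SPCC663.08c (309 and 191 CPM). SPNCRNA.1673 and SPCC594.03 overlap genes on the opposite strand, from which their reads cannot be told apart without a strand setting.

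SPRRNA.01 had the lowest log2 ratio, -2.80, at 16.6 CPM in treated HA and 2.26 CPM in treated 10M, with -3.00 in the untreated pair; this identifier was not matched to RefSeq, and the 8 libraries of the other strains lay between 14.5 and 26.5 CPM. Among protein-coding genes, adh4, an alcohol dehydrogenase, was at 742 CPM in treated HA and 266 CPM in treated 10M, a log2 ratio of -1.48 (-1.53 to -1.43), and its promoter, printed above, holds a TGACGT. cnp3, a centromere protein, was at 87.2 and 29.7 CPM, a log2 ratio of -1.55. met17, homocysteine synthase, was at 463 and 218 CPM, a log2 ratio of -1.09 that was -0.91 under scaling to total counts.

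The untreated libraries of the same strains, which share no library with the treated pair, gave 193 genes apart (3.87%), 125 higher (2.51%) and 68 lower (1.36%) in 10M. Of the genes higher after H2O2, 77 were also higher untreated (70% of the treated and 61.6% of the untreated calls). Of those lower after H2O2, 22 were also lower untreated (45.8% and 32.4%), and 0 genes were apart in opposite directions. With the filter on the treated pair, 53 of 77 higher genes (68.8%) were also higher untreated, beside 2.07% of all 4980 genes. Of the 77 lower genes under that filter, 25 (32.5%) were also lower untreated, beside 1.43% of all. Across the 4983 genes, which are not independent replicates, the treated and untreated ratios had a Pearson correlation of 0.693 and a Spearman correlation of 0.59. The mating list had 12 of 20 higher untreated as well, with a median of 1.41, and the stress list 9 of 31 with a median of 0.79.

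**Figure D4:**
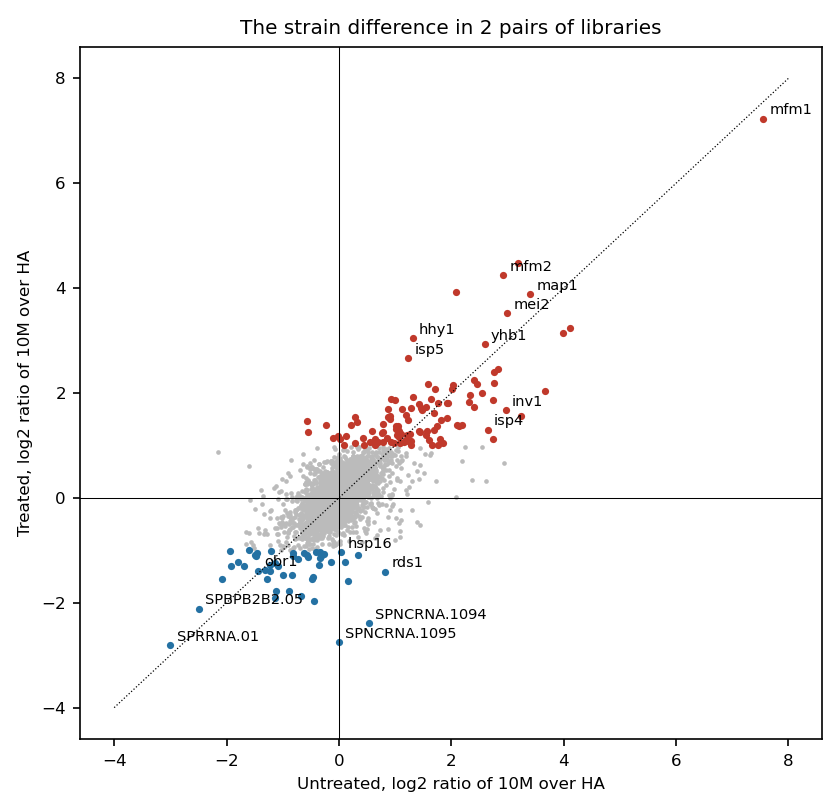
Log2 ratio of 10M over HA in the untreated pair (x axis) and in the treated pair (y axis), 1 point a gene, colored red or blue where at least 2-fold higher or lower after H2O2; the dotted line is equality of both ratios. mfm1 lies at 7.55 and 7.23, while SPNCRNA.1095, at 0.00 and -2.75, and SPNCRNA.1094, at 0.54 and -2.39, lie below the line.

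The response to H2O2 within each strain, treated over untreated, gave 579 genes apart in HA (11.6%) and 312 in 10M (6.26%); the 2 responses use the same 4 libraries as the ratios above, so they restate them from another side. SPNCRNA.1095 had a response of 3.41 in HA and 0.66 in 10M on the log2 scale, and SPNCRNA.1094 3.37 and 0.45. hsp16 responded by 3.83 in HA and 2.76 in 10M, rds1 by 2.55 and 0.31, tps1 by 1.10 and 0.16, and ntp1 by 1.64 and 0.19. The catalase responded by 2.40 in HA and 2.99 in 10M, srx1 by 1.88 and 3.05, and trr1 by 0.53 and 1.70. ste11 had responses of -2.40 in HA and -2.76 in 10M, mei2 -2.40 and -1.87, and mfm2 -2.08 and -0.76. The 48 lower genes had a median response of 1.33 in HA and 0.66 in 10M, and the 110 higher genes of -0.39 and -0.37.

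**Figure D5:**
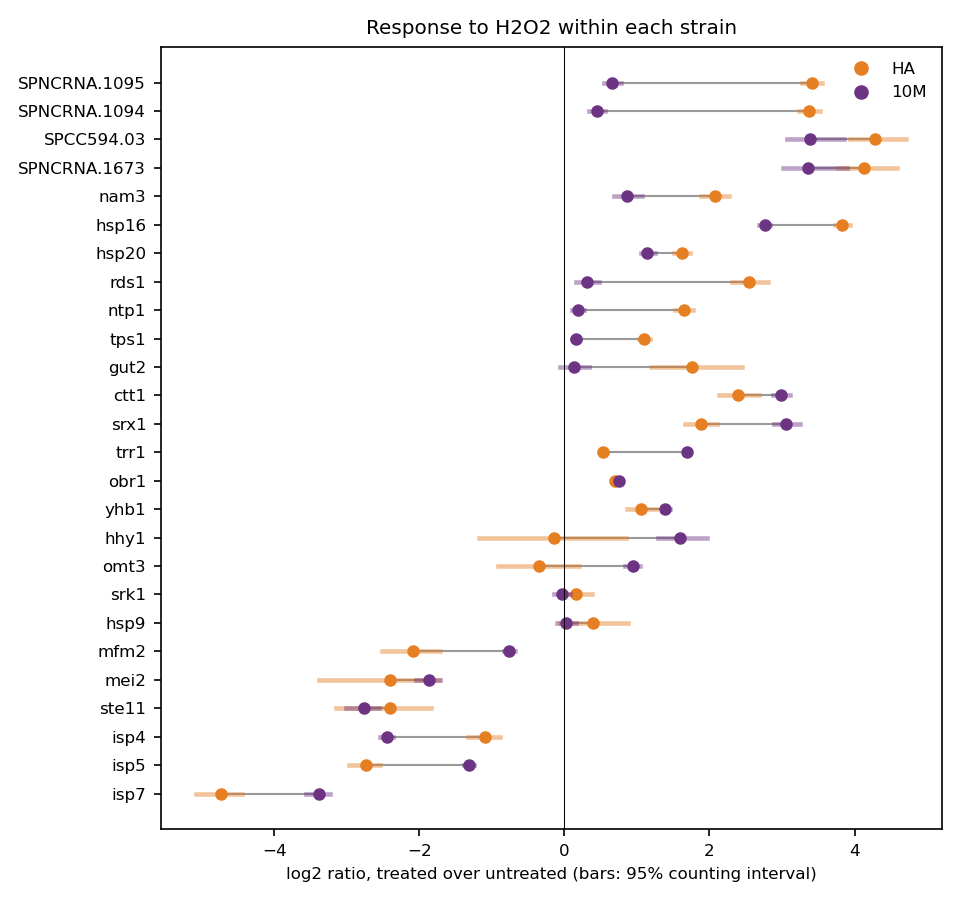
Log2 ratio of treated over untreated (x axis) for 26 genes (y axis) in HA (orange) and 10M (purple), 1 point a strain, with colored bars for the 95% counting interval and grey lines joining the strains. The response of SPNCRNA.1095 is 3.41 in HA and 0.66 in 10M, and that of trr1 is 0.53 in HA and 1.70 in 10M.

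The other strains gave levels of the same genes in libraries outside the pair. With the filter on the pair alone, 57 of the 77 genes higher in 10M (74%) were at least 2-fold higher in treated WT than in treated STY, against 18% of the 4980 genes that passed it, and 55 (71.4%) were higher in treated 10D than in treated STY, against 16.7%. Untreated WT was higher than untreated STY for 46 of the 77 (59.7%, against 2.95% of all). Of the 77 lower genes, 57 (74%) were lower in treated WT than in treated STY, against 12.4% of all, and 58 (75.3%) were lower in treated 10D than in treated STY, against 9.54%. The WT and 10D comparisons share the STY library, and the filter on the pair can admit lower genes through treated HA, where they are high. Over the 110 higher genes of the main filter, a filter that itself depends on levels in WT and 10D, the median level was 8.5 CPM in treated HA, 9 CPM in treated STY, 29.6 CPM in treated 10M, 43.5 CPM in treated 10D and 55.5 CPM in treated WT.

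A fit over both treatments gave a difference of 10M minus HA with residual degrees of freedom, though its spread is the unequal response of strains, not repeats of a strain. With the 8 libraries labelled as sty1 deletions, edgeR's quasi-likelihood test called 0 of 6133 genes at a Benjamini-Hochberg adjusted p below 0.05, with a smallest adjusted p of 0.0947 and 474 genes at an unadjusted p below 0.05, while DESeq2 on the same design called 116 of 6508 (1.78%), 84 higher (1.29%) and 32 lower (0.492%). Without the 2 libraries of 10D, edgeR called 155 of 6005 genes (2.58%), 99 higher (1.65%) and 56 lower (0.933%), and with the 4 libraries of HA and 10M alone, with 1 residual degree of freedom, 705 of 6056 (11.6%), 351 higher (5.8%) and 354 lower (5.85%). Of the 158 genes apart in the treated pair 134 were called in that last fit (84.8% of the 158 and 19% of its calls), which contains the treated pair and is no independent check. For mfm1 the difference was 8.13 ± 1.49 (SE) on the log2 scale with an edgeR adjusted p of 0.201 over 8 libraries, and 7.76 ± 0.245 with an edgeR adjusted p of 0.000184 without 10D; over all fits run its adjusted p ranged from 4.07e-07 to 0.407. Without 10D, 11 of 24 mating genes and 8 of 32 stress genes were called higher by edgeR and 0 lower, while 2 of 17 Pap1-linked genes were called lower and 0 higher.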

How the data were processed

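The authors deposited 1 table of raw read counts for 7017 genes in 10 libraries; the submitters' processing notes name FastQC, TopHat2 2.1.1 and HTSeq, without the build, annotation or strand setting. Each library is 1 sample, and the labels give no replicates. From the deposited counts, CPM were scaled with edgeR 4.0.16 TMM factors over the 10 libraries (R 4.3.3), genes with a mean under 10 CPM were left out, and log2 ratios were taken with a prior count of 2. Exact (Clopper-Pearson) binomial 95% intervals on the 2 counts, which cover counting error only, decided with the 2-fold limit which genes were apart. The fit over both treatments used edgeR's quasi-likelihood test with strain and treatment as terms, and DESeq2 1.42.0 as an alternative; the ratio and fit steps were tested on simulated data. Named genes were the 12 highest and 12 lowest ratios among genes apart, up to 6 members of each of 27 lists with the largest absolute ratio, and 6 check genes; genes outside this rule were chosen after their values were seen. The members and lists were chosen with earlier results of these data known. RefSeq ASM294v3 gave names, neighbours and promoters for 6843 genes; 174 were not matched. The list names gph1, his9 and aro3 were not matched. Alternatives changed scaling, prior count, filters, noncoding genes and the libraries fitted; no library could be left out of a side of 1. A gene that met the rule for a closer look is not reported here.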

Additional observations from a re-analysis of the deposited data

Results flagged for a closer look

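These named transcripts were apart in at least 1 pair. They had 10M to HA log2 ratios of opposite sign in the treated and untreated pairs, with counting intervals clear of 0 in each. The difference between pairs has no replicate and was not tested. Other named genes changed sign in this way without being apart in either pair, among them ntp1 (-0.59 treated, 0.87 untreated) and srx1 (0.62 and -0.56). For rds1 the treated minus untreated difference was -2.23, from a treated ratio of -1.41 and an untreated ratio of 0.83. For SPNCRNA.1094 it was -2.92, from -2.39 and 0.54.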

How the results depend on the processing

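The count of genes apart in the treated pair was 158, and was 66 with a minimum of 50 CPM, 411 with no filter beyond 1 count and 125 without noncoding genes; in the untreated pair it was 193, and 97 and 414 under the first and second of these. Scaling to total counts, DESeq2 size factors and a prior count of 0.5 gave 186, 155 and 159 in the treated pair. The fit called 0 genes with all 8 libraries, 0 without STY, with DESeq2 size factors, with no filter or without noncoding genes, and 116 with DESeq2, 155 without 10D and 705 with the 4 HA and 10M libraries; the cause was not tested. With no filter the median of flocculins turned from -0.3175 to 0.0422 and that of Tf2 elements from 0.57 to -0.20, each with more members counted. Among named genes, scaling to total counts took hsp16, met17 and SPCC663.08c below 2-fold and isp7, ght4, amt1, dak1, mpr1 and pfl8 above it, and DESeq2 size factors took pfl5 to 0.99. A count of 0 in HA allows up to 0.302 CPM. No paired analysis was possible because each group has 1 library and no replicate numbers are given. In a promoter window of 500 bases before the start, chosen after seeing the data, TGACGT was found in 25% of higher, 16% of lower and 8.38% of all genes.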

Other observations

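Some genes that were apart lie side by side. Of 110 higher genes 17 (15.5%) had an adjacent gene in RefSeq that was also higher, and of 47 lower genes placed there 6 (12.8%) had one that was also lower. Over all 4968 genes compared and placed, 138 (2.78%) lay next to a higher gene and 56 (1.13%) next to a lower one; no test was made. The higher pairs included isp5 with mmf2 and SPAC513.02 with mfm2, and the lower pairs were zpr1 with SPNCRNA.926, SPNCRNA.1094 with SPNCRNA.1095, and nam3 with SPBPB2B2.05, none of which overlap. Another annotated gene overlapped 52.7% of the higher genes, 57.4% of the lower genes and 59.5% of all genes compared.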
